A study of Mus musculus with 15 samples.

Results

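A set of 9 genes of serine synthesis and folate-bound one-carbon metabolism was followed across the adipocytes of mouse dorsal skin: Phgdh, Psat1 and Psph of serine synthesis, Sfxn1 of mitochondrial serine import, the serine hydroxymethyltransferases Shmt1 and Shmt2, and the folate enzymes Mthfd1, Mthfd2 and Aldh1l2. They are 9 of the 35373 genes in the deposited count table, picked by gene name as members of the pathway, with their levels in these libraries already known. Their levels and group differences are therefore a description, with no test of their own. Bulk RNA was sequenced from the fraction of a collagenase digest that floats. The 15 libraries comprise 4 from mice in which Wnt signalling had been active for 2 days at postnatal day 23 (2-day Wnt), 3 from controls of that age (P23), 5 from mice at postnatal day 26 after 5 days of activity (5-day Wnt) and 3 from P26 controls. The Wnt mice carried EngrailedCre/+, Rosa26rtTA/Rosa26rtTA and TetOBcat/+, so that doxycycline switched on a β-catenin transgene in the Engrailed lineage, which is not a driver restricted to adipocytes. The controls lacked the Cre (+/+) and carried the same Rosa26rtTA and TetOBcat alleles. Doxycycline was given to every mouse, controls included, at 6 g/kg in the food together with 2 mg/mL in the drinking water.

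Serine is built from the glycolytic intermediate 3-phosphoglycerate by PHGDH, PSAT1 and PSPH, acting in that order. SFXN1 carries serine into mitochondria, where SHMT2 splits it into glycine and a carbon unit bound to tetrahydrofolate, while SHMT1 catalyses the same reaction in the cytosol. MTHFD2 (mitochondrial) and MTHFD1 (cytosolic) convert the bound unit between its oxidation states, and ALDH1L2 burns the mitochondrial formyl unit to carbon dioxide while making NADPH. The pathway supplies carbon for purines, thymidylate and methionine, and the transcription factor ATF4 is known to drive many of its genes when amino acids are short.

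Total counts per library ran from 11383421 to 38501753. Adipocyte markers (10 of 10 in the table, none at 0 in all libraries) summed to 27600 to 89910 CPM (counts scaled to the normalized library size) in 2-day Wnt libraries, against 63810 to 103600 CPM in P23 controls, and to 13120 to 67440 CPM in 5-day Wnt libraries, against 12910 to 86010 CPM in P26 controls. Stromal markers (8 of 8 in the table) summed to 9600 to 28030 CPM in 2-day Wnt libraries, against 9276 to 10160 CPM in P23 controls, and to 15380 to 80240 CPM in 5-day Wnt libraries, against 5283 to 24510 CPM in P26 controls. Several libraries stood apart. The library labelled 2-day Wnt replicate 1 is a control in the authors' deposited sample sheet, and 31.7% of its counts were mitochondrial, with hair follicle markers at 4158 CPM against 0 to 41.3 CPM in the rest of its group. P26 control replicate 1 held the lowest adipocyte sum (12910 CPM) and the highest keratinocyte sum (5471 CPM). Next lowest in adipocyte sum was 5-day Wnt replicate 5 (13120 CPM), which held the highest stromal sum (80240 CPM). The smallest total count was that of 5-day Wnt replicate 1, with an adipocyte sum of 24260 CPM. Y-linked transcripts were at 76.8 to 149.8 CPM in all 5 of the 5-day Wnt libraries and at 44.8 to 111.7 CPM in 3 of 4 of the 2-day Wnt libraries, but above 1.39 CPM in only 1 of 3 controls at each age, so sex and Wnt activation are partly mixed. Axin2, a Wnt target gene, was at 28.2 to 62.8 CPM in 5-day Wnt libraries. In 2-day Wnt libraries it was at 27.6 to 64.96 CPM except in replicate 1 (10.01 CPM). Among controls it was at 39.8 CPM in P23 replicate 1, 34.85 CPM in P26 replicate 1 and 4.17 to 9.07 CPM in the others. Higher Axin2 thus went with Y-linked transcripts above 1.39 CPM, not always with the group label, and the cause was not tested.

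The sequences upstream of the 3 serine synthesis genes and of Sfxn1 are shown, because Psat1 and Sfxn1 had the most alike profiles among the 9 genes, and Phgdh, Psat1 and Psph catalyse consecutive steps. Each is the 250 bases before a RefSeq start on GRCm38.p6, the build of all coordinates here being GRCm38, read in the direction of transcription. Capitals mark a CCAAT box (CCAAT, or ATTGG where it lies on the other strand) or the 8-letter pattern TGNTGNAA, a loosened form of the C/EBP-ATF response element that ATF4 binds.
Phgdh (chr3:98339970-98340219, minus strand): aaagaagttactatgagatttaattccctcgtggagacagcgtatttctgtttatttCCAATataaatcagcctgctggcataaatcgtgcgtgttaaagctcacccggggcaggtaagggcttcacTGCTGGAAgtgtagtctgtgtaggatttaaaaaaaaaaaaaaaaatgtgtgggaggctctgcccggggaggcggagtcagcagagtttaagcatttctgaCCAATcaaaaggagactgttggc
Psat1 (chr19:15925060-15925309, minus strand): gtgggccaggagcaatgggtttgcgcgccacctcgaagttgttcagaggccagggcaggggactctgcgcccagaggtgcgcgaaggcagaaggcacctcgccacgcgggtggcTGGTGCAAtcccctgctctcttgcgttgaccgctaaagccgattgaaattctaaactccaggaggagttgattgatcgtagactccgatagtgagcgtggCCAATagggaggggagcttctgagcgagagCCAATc
Psph (chr5:129787254-129787503, minus strand): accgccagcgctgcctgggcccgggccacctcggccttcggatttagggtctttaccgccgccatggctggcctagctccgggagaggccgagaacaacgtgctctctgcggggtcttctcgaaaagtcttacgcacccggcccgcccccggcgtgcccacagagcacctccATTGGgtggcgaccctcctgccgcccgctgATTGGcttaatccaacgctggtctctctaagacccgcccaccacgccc
Sfxn1 (chr13:54071595-54071844, plus strand): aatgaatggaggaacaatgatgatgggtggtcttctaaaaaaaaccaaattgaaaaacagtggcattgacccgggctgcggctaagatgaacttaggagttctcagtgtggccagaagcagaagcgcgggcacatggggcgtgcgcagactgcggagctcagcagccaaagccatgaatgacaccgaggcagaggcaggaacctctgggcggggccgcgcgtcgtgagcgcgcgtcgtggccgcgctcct
Phgdh, Psat1 and Psph each held 2 CCAAT boxes in the windows shown, at -193 and -23 in Phgdh, -36 and -6 in Psat1, and -78 and -48 in Psph (leftmost base, counted from the start), and Sfxn1 held none. Psat1 has a second RefSeq start, whose window (chr19:15924623-15924872, minus strand) held neither a CCAAT box nor TGNTGNAA. Of all 32851 windows of this length, 33.8% held at least 1 and 10.1% at least 2. The stricter element TGATGNAA, searched on both strands, was in none of the members' windows and in 3.45% of all windows. TGNTGNAA stood in 12.8% of all windows and in those of Phgdh (TGCTGGAA, at -123) and Psat1 (TGGTGCAA, at -136), and overlapped no CCAAT box there. Windows were in the RefSeq table for 8 of the 9 genes, all but Aldh1l2. Mthfd2 held 3 CCAAT boxes, Shmt1 and Mthfd1 held 1 each, and Shmt2 held none. These are matches of letters, and no binding was measured.

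Set per kilobase of exon, Psat1 was the most abundant of the 9, with a median of 37.1 CPM per kb over the 15 libraries. This scale compares genes only roughly, since it uses the union of annotated exons, not all of which need be in use. Phgdh (14.6 CPM per kb), Sfxn1 (14.5) and Shmt2 (14.1) followed, and these 3 medians lie well within one another's spread over libraries. Mthfd1 stood at a median of 8.74 CPM per kb, Psph at 3.95, Mthfd2 at 3.04 and Shmt1 at 2.81. Aldh1l2 was the lowest at 1.43 CPM per kb and the only member with libraries at 0. The spread over libraries was narrowest for Psph, whose highest library was 4.20 times its lowest, and wide for Sfxn1 (10.99 times) and Mthfd2 (12.8 times).

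No member passed the threshold (adjusted p under 0.05, edgeR's quasi-likelihood test over 16935 genes) in any comparison, where 0% of all genes did. Unadjusted p-values under 0.05 were given by edgeR for 875 genes at 2 days and for 1195 genes at 5 days, the lowest adjusted p being 0.919 and 0.166. If no gene differed, a fraction of 0.05 of the 16935 genes would be expected to have such a p-value. DESeq2 called 149 genes at 2 days (0.901% of those tested) and 200 genes at 5 days (1.21%), and limma voom with quality weights called 0 at 2 days (0%) and 226 at 5 days (1.33%), with no member among them in either tool. At 2 days the fitted log2 fold change was above 0 for 2 of the 9 members and below 0 for 7, with a median of -0.17, where the median of all genes was 0.00. At 5 days 4 lay above 0 and 5 below, with a median of -0.20, where the median of all genes was 0.03. In bulk RNA, fewer cells of a type and less RNA per cell cannot be told apart in any of these values.

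**Figure D1:**
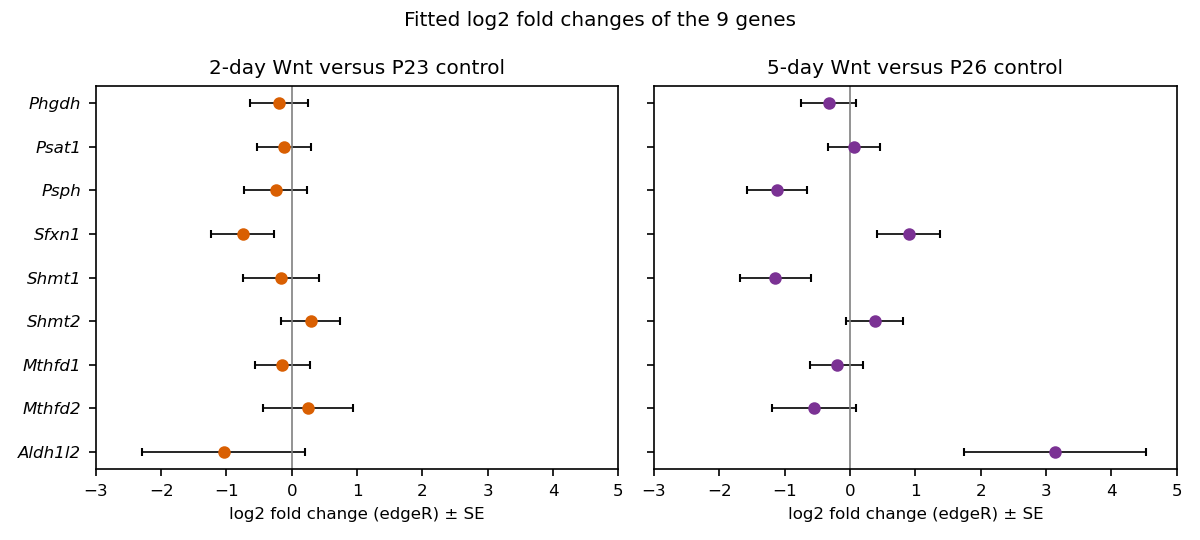
Fitted log2 fold change (x axis) of each of the 9 genes (y axis) with its SE as a bar, for 2-day Wnt over P23 control (left) and 5-day Wnt over P26 control (right), from the edgeR fit to all 15 libraries. At 2 days every value lies between -1.04 and 0.29; at 5 days Aldh1l2 stands at 3.14, and Psph and Shmt1 at -1.12 and -1.15.

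Across the 2-day comparison the members overlapped between the groups in all 9 cases; over all genes tested, 2.24% lay wholly above their controls and 2.91% wholly below. The same held for all 9 without 2-day Wnt replicate 1, also when P26 control replicate 1 was left out too (3.54% of all genes then above, 4.7% below), and with the grouping of the sample sheet (1.54% above, 2.14% below). At 5 days, Aldh1l2 lay wholly above the P26 controls (3.39% of all genes did) and Psph wholly below them (2.25% of all genes did). Without P26 control replicate 1, when 7.13% of all genes lay wholly above and 8.59% wholly below, no further member was separated. The P26 controls lay wholly below the P23 controls for Psat1 and Sfxn1, where 5.67% of all genes did, and wholly above for none of the members, where 6.51% of all genes did.

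Phgdh (ENSMUSG00000053398, chr3:98313170-98339990, minus strand), which takes the committing step of serine synthesis, showed no separation at either time. Its level was 29.2, 35.7, 36.3 and 20.1 CPM in the 2-day Wnt libraries, against 17.99, 56.6 and 29.4 CPM in P23 controls. At the later age it was 46.8, 43.4, 43.4, 42.2 and 16.6 CPM in the 5-day Wnt libraries, against 40.8, 31.2 and 72.8 CPM in P26 controls. The controls spanned the Wnt libraries at P23, and at P26 4 of the 5 Wnt libraries lay within 5 CPM of one another with replicate 5 far below. On the log2 scale the fitted difference was -0.19 ± 0.44 (SE) after 2 days and -0.33 ± 0.42 after 5, and it took the opposite sign without P23 control replicate 2 (0.35 at 2 days) and without P26 control replicate 3 (0.10 at 5 days).

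Psat1 (ENSMUSG00000024640, chr19:15904678-15947337, minus strand), the aminotransferase of the middle step and the most abundant member per kilobase, overlapped between Wnt and control libraries at both times, while the controls of the 2 ages did not overlap. The 2-day Wnt libraries held 118, 341.2, 156 and 203 CPM, against 225, 236 and 206 CPM in P23 controls. In the 5-day Wnt libraries it was 76.8, 157, 188, 196 and 74.2 CPM, against 98.4, 141 and 158 CPM in P26 controls. In 3 of the 2-day Wnt libraries Psat1 lay below every P23 control, and in replicate 2 above them all, and at P26 the Wnt libraries spread to both sides of the controls. Fitted log2 differences were -0.12 ± 0.42 (SE) after 2 days and 0.06 ± 0.40 after 5; the value was 0.07 at 2 days without 2-day Wnt replicate 1 and -0.10 at 5 days without P26 control replicate 1. Between controls, the mean was 132 ± 30.7 CPM at P26 and 222 ± 15.04 CPM at P23 (SD, n = 3 each), which is -0.75 ± 0.45 on the log2 scale (SE; edgeR adjusted p = 0.727). The 4 libraries with the smallest adipocyte marker sums (12910 to 27600 CPM: 5-day Wnt replicates 1 and 5, 2-day Wnt replicate 1 and P26 control replicate 1) were also the 4 with the least Psat1. P26 control replicates 2 and 3 held 141 and 158 CPM of Psat1. Their sums were 60710 and 86010 CPM, the first below and the second within the 63810 to 103600 CPM of the P23 controls. The part of adipocyte content in the differences was not tested.

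Psph (ENSMUSG00000029446, chr5:129765558-129787449, minus strand), the phosphatase that releases serine, was lower in each 5-day Wnt library than in each P26 control. It stood at 9.06, 10.1, 14.5, 16.5 and 9.17 CPM in 5-day Wnt libraries, against 17.2, 23.99 and 36.2 CPM in P26 controls. The means were 11.9 ± 3.41 CPM (SD, n = 5) in 5-day Wnt libraries and 25.8 ± 9.61 CPM (SD, n = 3) in P26 controls, and the log2 fold change was -1.12 ± 0.46 (SE; edgeR adjusted p = 0.696). The gap between the groups was small, from 16.5 CPM in the highest Wnt library to 17.2 CPM in the lowest control, and that control was the only one with Y-linked transcripts above 1.39 CPM, which all 5 Wnt libraries held at 76.8 CPM or more. With Y-linked content as a term of the fit the log2 fold change was -0.48 (edgeR adjusted p = 0.886). At 2 days the Wnt libraries held 37.9, 22.9, 10.1 and 14.1 CPM, against 20.5, 38.1 and 17.1 CPM in P23 controls, a log2 fold change of -0.25 ± 0.48 (SE) with overlap on both sides; at 0.17, it had the opposite sign without P23 control replicate 2. At both ages the highest Psph values came from libraries with Y-linked transcripts at 1.39 CPM or less. P23 control replicate 3, also of that kind, held the lowest value of its group (17.1 CPM). P23 control replicate 1, with Y-linked transcripts at 109.6 CPM, held 20.5 CPM of Psph. At 5 days sex and Wnt activation cannot be told apart, since no 5-day Wnt library had Y-linked transcripts at 1.39 CPM or less. An exon stretch of 452 bp (10.4% of the exon length of Psph) is shared with Cct6a on the opposite strand, at a median of 101.4 CPM, and whether counting used strand is not stated in the sources used here.

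**Figure D2:**
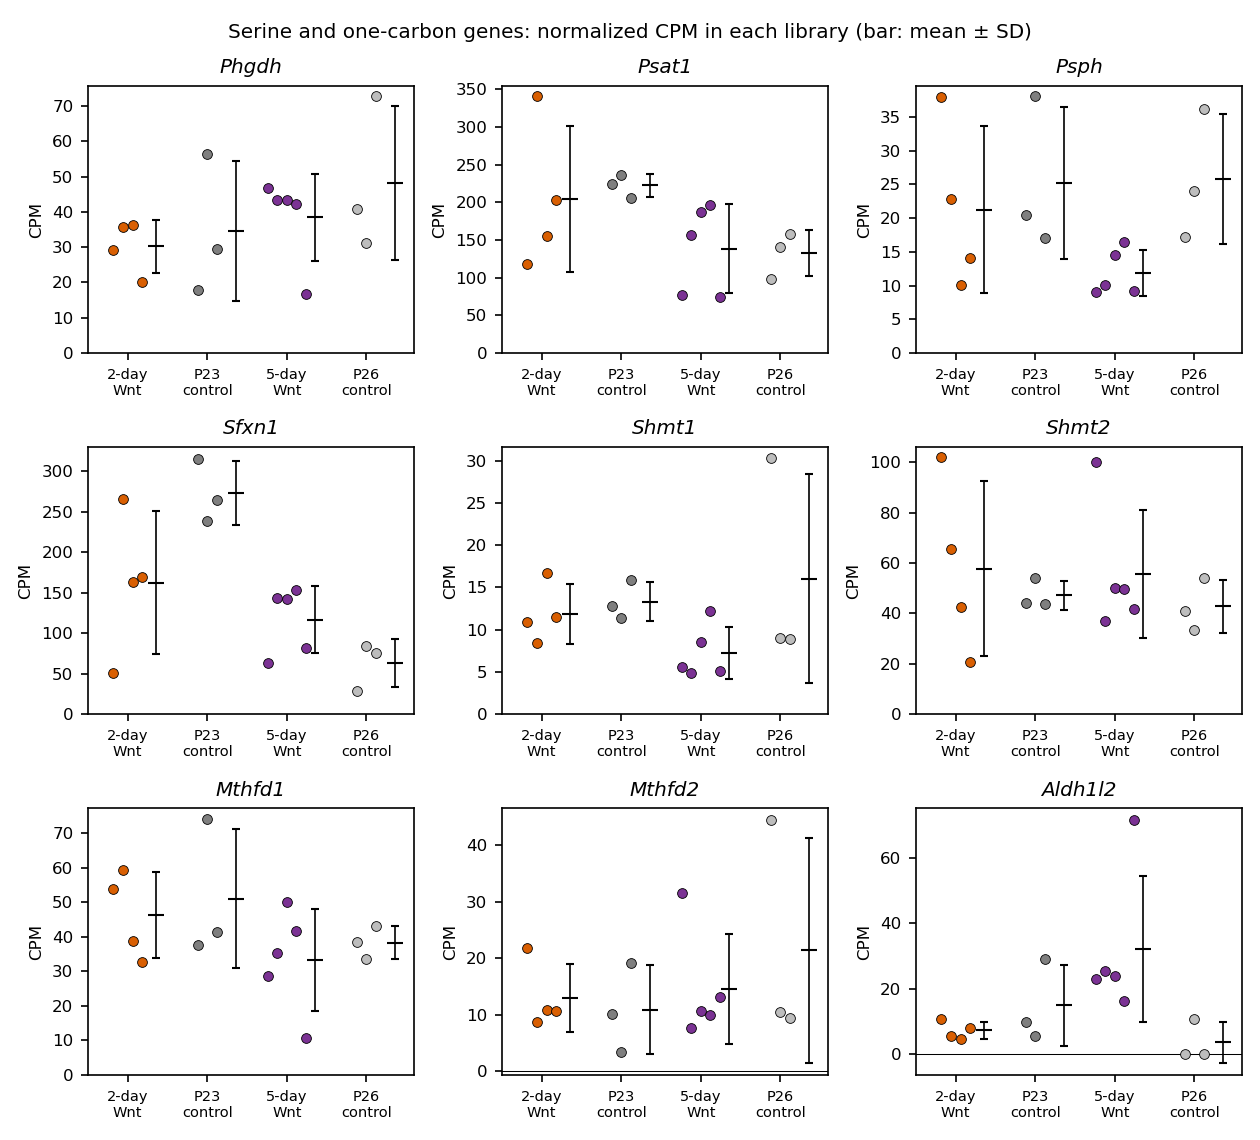
Normalized CPM (y axis, from 0 or just below) of each gene in every library (points, in replicate order) by group (x axis), with the group mean and SD as a bar beside the points. Psph sits at 9.06 to 16.5 CPM in 5-day Wnt libraries, below all P26 controls; Aldh1l2 sits at 16.3 to 71.5 CPM there, with P26 control replicates 1 and 3 at 0; Sfxn1 is at 84.1 CPM or less in P26 controls and at 239 CPM or more in P23 controls.

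Sfxn1 (ENSMUSG00000021474, chr13:54071869-54108342, plus strand), the mitochondrial serine carrier, had the widest separation between the ages of the controls. P26 controls held 28.7, 84.1 and 75.2 CPM, against 316, 239 and 265 CPM in P23 controls, so that the highest P26 value was well under the lowest P23 value. The means were 62.7 ± 29.7 CPM at P26 and 273 ± 39.2 CPM at P23 (SD, n = 3 each), or -2.12 ± 0.54 as a log2 difference (SE; edgeR adjusted p = 0.472). DESeq2 (log2 fold change -2.10, adjusted p = 0.0036, 1.73% of genes called) and limma voom with quality weights (-1.91, adjusted p = 0.0312, 0.815% called) put this difference past the threshold. Among controls with Y-linked transcripts above 1.39 CPM, Sfxn1 was at 28.7 CPM at P26 and 316 CPM at P23 (1 library each), and among the others at 75.2 and 84.1 CPM at P26 and 239 and 265 CPM at P23; the part of sex in the difference was not tested. Under the grouping of the authors' deposited sample sheet, 2-day Wnt replicate 1 (50.1 CPM) joins the P23 controls and the ages overlap for all 9 members (3.05% of all genes then lay wholly above and 2.17% wholly below at P26). Keratinocyte markers (8 of 8 in the table) summed to 869 to 5471 CPM in P26 controls and to 35.3 to 343 CPM in P23 controls, and their part in the difference was not tested.

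Relative to controls of their own age, Sfxn1 values lay on opposite sides at the 2 times; the comparison of the controls shares its libraries with both Wnt comparisons. The 2-day Wnt libraries held 50.1, 266, 163 and 169 CPM, against the 239 to 316 CPM of the P23 controls: all 4 were below the control mean and 3 were below every control. In 5-day Wnt libraries it was 63.3, 143, 142, 153 and 81.6 CPM, against the 28.7 to 84.1 CPM of the P26 controls: all 5 were above the control mean and 3 were above every control. Log2 fold changes were therefore opposite in sign, -0.75 ± 0.48 (SE) for the earlier time and 0.90 ± 0.48 for the later, and edgeR's test of their difference (1.65 ± 0.67) gave an adjusted p of 0.811. Over all the settings and left-out libraries tried they ran from -1.16 to -0.12 at 2 days and from 0.56 to 1.18 at 5 days. Both Wnt means thus lay between those of the 2 control groups, at 162 ± 88.3 CPM (SD, n = 4) at 2 days and 117 ± 41.1 CPM (SD, n = 5) at 5 days. The lowest Sfxn1 value came from the library with the smallest adipocyte marker sum in the 2-day Wnt group and the P26 controls. It did not in the 5-day Wnt group, and in the P23 controls it came from the library with the largest sum (replicate 2, 103600 CPM). The part of adipocyte content was not tested.

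Shmt1 (ENSMUSG00000020534, chr11:60788104-60811718, minus strand), the cytosolic hydroxymethyltransferase, was among the least abundant members, with 66 to 669 counts per library. It stood at 5.59, 4.86, 8.50, 12.2 and 5.10 CPM in 5-day Wnt libraries, against 30.3, 8.975 and 8.88 CPM in P26 controls. The 5-day Wnt mean was 7.25 ± 3.12 CPM (SD, n = 5), and the P26 control mean of 16.1 ± 12.4 CPM (SD, n = 3) was set by replicate 1. Correspondingly the log2 fold change was -1.15 ± 0.54 (SE; edgeR adjusted p = 0.707) with all libraries and -0.29 (adjusted p = 0.986) without P26 control replicate 1. At 2 days it was 10.9, 8.36, 16.7 and 11.46 CPM in Wnt libraries, against 12.8, 11.4 and 15.8 CPM in P23 controls, with the groups interleaved and a log2 fold change of -0.17 ± 0.58 (SE). Without P26 control replicate 1 the P26 controls lay wholly below the P23 controls for Shmt1 as well (9.12% of all genes then did, and 13.5% lay wholly above). Smcr8 on the opposite strand shares 184 bp of its exons (4.74%).

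Shmt2 (ENSMUSG00000025403, chr10:127517123-127522444, minus strand), the mitochondrial counterpart, overlapped between the groups at both times. It was 102, 65.7, 42.5 and 20.6 CPM in 2-day Wnt libraries, against 43.9, 53.9 and 43.8 CPM in P23 controls, and 99.98, 37.0, 50.1, 49.7 and 41.6 CPM in 5-day Wnt libraries, against 41.0, 33.3 and 54.0 CPM in P26 controls. The Wnt groups spread more widely than the controls, and replicate 1 of each Wnt group was the highest, with the rest of the 5-day group inside the control range. Fitted values were 0.29 ± 0.45 (log2, SE) for the earlier time and 0.38 ± 0.43 for the later; the earlier one was -0.14 without 2-day Wnt replicate 1 and -0.50 with the grouping of the sample sheet, and the later one was 0.06 without 5-day Wnt replicate 1. Replicate 1 of each Wnt group also had the highest share in its group of mitochondrial counts (31.7% at 2 days and 16.6% at 5 days), whose part was not tested.

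Within a library, the ratio of Shmt2 to Shmt1 per kilobase was above 1 in all 15, so on this scale the mitochondrial enzyme's transcript was the more abundant form throughout. The ratio had a median of 6.49 (2.25 to 11.7) in 2-day Wnt libraries and 4.30 (3.45 to 5.92) in P23 controls. It had a median of 9.51 (5.10 to 22.4) in 5-day Wnt libraries and 4.64 (1.69 to 7.59) in P26 controls, and the ranges overlap at both times.

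Mthfd1 (ENSMUSG00000021048, chr12:76255298-76319803, plus strand), the cytosolic enzyme with 3 activities, showed no separation at either time. Values were 53.8, 59.4, 38.8 and 32.9 CPM in 2-day Wnt libraries, against 37.6, 74.1 and 41.4 CPM in P23 controls, and 28.6, 35.3, 50, 41.6 and 10.8 CPM in 5-day Wnt libraries, against 38.4, 33.6 and 43.1 CPM in P26 controls. At 2 days 3 of the 4 Wnt libraries lay within the control range, and at 5 days the Wnt libraries reached beyond it on both sides, replicate 5 being far below. In the fit the log2 difference was -0.14 ± 0.42 (SE) early and -0.20 ± 0.40 late; it was 0.03 at 5 days without that replicate and 0.22 at 2 days without P23 control replicate 2.

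Mthfd2 (ENSMUSG00000005667, chr6:83305691-83325908, minus strand), the mitochondrial dehydrogenase, was low, with 96 to 980 counts per library, and its high values were scattered over the groups. It was 21.9, 8.73, 10.8 and 10.7 CPM in 2-day Wnt libraries, against 10.1, 3.475 and 19.2 CPM in P23 controls, and 31.6, 7.61, 10.6, 9.91 and 13.2 CPM in 5-day Wnt libraries, against 44.4, 10.5 and 9.37 CPM in P26 controls. Replicate 1 was the highest in each Wnt group and in the P26 controls, and the rest of those groups lay between 7.61 and 13.2 CPM. Fitted log2 fold changes stood at 0.25 ± 0.69 (SE) for 2 days and -0.56 ± 0.64 for 5. Their sign depended on single libraries: it was -0.13 at 2 days without 2-day Wnt replicate 1 and 0.55 at 5 days without P26 control replicate 1. Opposite to Shmt2 and Shmt1, the mitochondrial form was the less abundant one of the pair in 12 of 15 libraries, with Mthfd2 to Mthfd1 ratios per kilobase of 0.0597 to 0.589. The ratio exceeded 1 in 5-day Wnt replicates 1 (1.41) and 5 (1.56) and in P26 control replicate 1 (1.47), which are also 3 of the 4 libraries with the smallest adipocyte marker sums.

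Aldh1l2 (ENSMUSG00000020256, chr10:83487450-83534140, minus strand), the mitochondrial formyltetrahydrofolate dehydrogenase, had the largest difference of the 9 at 5 days. It stood at 23.1, 25.6, 23.99, 16.3 and 71.5 CPM in 5-day Wnt libraries, against 0, 10.9 and 0 CPM in P26 controls. In counts these were 273, 568, 511, 638 and 1739 in the Wnt libraries, against 0, 329 and 0 in the controls. In CPM the lowest Wnt library (16.3) was above the only control with any reads (10.9). A count of 0 allows up to 0.136 CPM for the first of these controls and 0.1345 CPM for the third (3 counts, counting error only). The means were 32.1 ± 22.3 CPM (SD, n = 5) in 5-day Wnt libraries and 3.62 ± 6.27 CPM (SD, n = 3) in P26 controls, and the log2 difference 3.14 ± 1.39 (SE; edgeR adjusted p = 0.696).

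Of the 3047 genes within 1.5 times the mean CPM of Aldh1l2, 6.73% were at 0 in P26 control replicate 1 and 0.492% in replicate 3. Without P26 control replicate 2, whose 329 counts are the only ones in the group, edgeR's fit gave an adjusted p of 0.00494 with a fitted log2 fold change of 12.60, which depends on the prior count and bounds nothing. The highest value, 71.5 CPM in 5-day Wnt replicate 5, came from the library with the largest stromal marker sum (80240 CPM) and nearly the smallest adipocyte sum (13120 CPM). The other 4 of the 5-day Wnt libraries, with stromal sums of 15380 to 34520 CPM, held 16.3 to 25.6 CPM, against 0 to 10.9 CPM in P26 controls with stromal sums of 5283 to 24510 CPM. The part of stromal RNA in the difference was not tested. D10Wsu102e, on the opposite strand at a median of 20.6 CPM, shares 1056 bp of exon (14.1% of that of Aldh1l2).

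At 2 days Aldh1l2 was at 10.7, 5.43, 4.795 and 8.07 CPM in Wnt libraries, against 9.83, 5.68 and 29.2 CPM in P23 controls. Replicate 3 set the control mean, and the groups overlapped. The log2 fold change was -1.04 ± 1.25 (SE), or -0.14 without that control, and edgeR's test of the difference between the 5-day and 2-day effects (4.18 ± 1.83) gave an adjusted p of 0.868. Between controls, the 0, 10.9 and 0 CPM at P26 stood against 5.68 to 29.2 CPM at P23, which the fit gave as -2.03 ± 1.396 in log2 units (SE; edgeR adjusted p = 0.799).

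**Figure D3:**
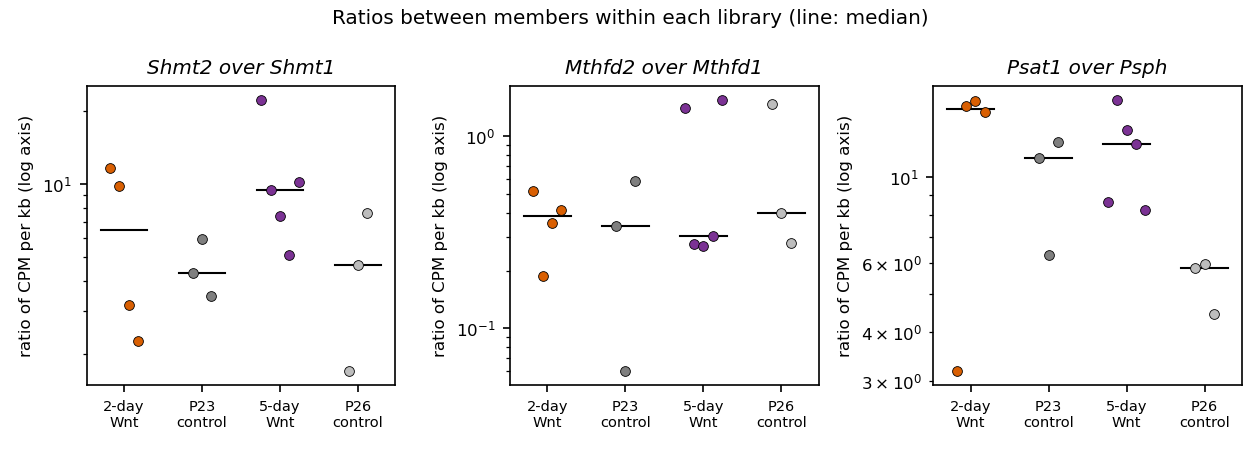
Ratios of CPM per kb between 2 members within each library (points, log y axis) by group (x axis), with the median as a line. Shmt2 exceeds Shmt1 in every library, and Mthfd2 exceeds Mthfd1 in only 3 libraries. Psat1 over Psph is 4.44 to 5.99 in P26 controls, below the 8.23 to 15.8 of the 5-day Wnt libraries (share over all gene pairs not computed).

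The 3 genes of serine synthesis did not keep a fixed ratio to one another. Psat1 over Psph per kilobase was 8.63, 15.8, 13.2, 12.1 and 8.23 in 5-day Wnt libraries, against 5.83, 5.99 and 4.44 in P26 controls. It was 3.17, 15.2, 15.7 and 14.7 in 2-day Wnt libraries, against 11.2, 6.31 and 12.3 in P23 controls. The ratio did not overlap between the groups at 5 days, where Psph alone did not overlap either. At 2 days the groups overlapped, 2-day Wnt replicate 1 lying below every P23 control and the other Wnt libraries above. The share of all gene pairs whose ratio separates in this way was not computed, so the separation cannot be set against it. Psat1 over Phgdh was 0.959 to 2.72 in 5-day Wnt libraries and 1.27 to 2.65 in P26 controls, and 2.37 to 5.91 in 2-day Wnt libraries and 2.44 to 7.30 in P23 controls.

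**Figure D4:**
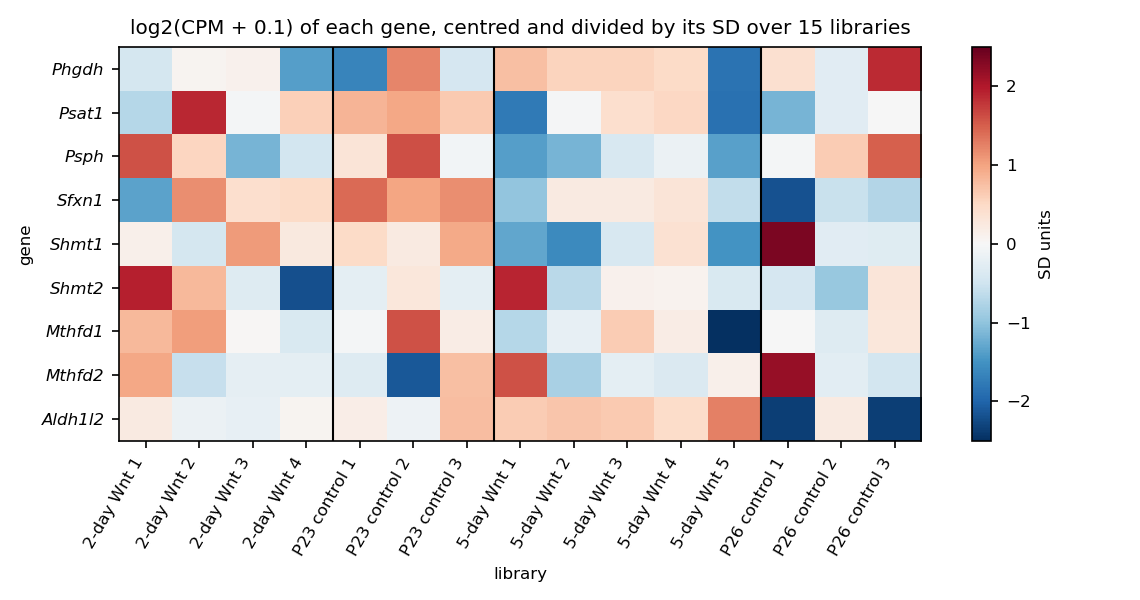
Each gene's log2(CPM + 0.1), centred and divided by its SD over the 15 libraries (colour scale in SD units), with genes as rows and libraries as columns grouped by condition. Psat1 and Sfxn1 are low in 5-day Wnt replicates 1 and 5 and in P26 control replicate 1 and high in P23 controls, whereas Mthfd2 is highest in P26 control replicate 1.

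The profiles of the members were compared as the root mean square difference of their log2 CPM in SD units over the 15 libraries, which share depth and cell content. Of 36 pairs, Psat1 and Sfxn1 were the closest (0.612), followed by Psat1 and Mthfd1 (0.801), and Sfxn1 and Mthfd2 were the farthest apart (1.83). Among 10482 other genes, those nearest to Psat1 were Bcat2, the mitochondrial aminotransferase of branched-chain amino acids (0.330), and Cbr1, a carbonyl reductase (0.354). Iars2, the mitochondrial isoleucyl-tRNA synthetase (0.393), and Rtn3 (0.416) were nearest to Sfxn1. Atp6v1e1, a subunit of the vacuolar ATPase (0.490), was among the nearest to Psph. For Aldh1l2 the nearest were Fam161a (0.336) and Ccp110 (0.345), for Mthfd1 they were Atad3a (0.381) and Mgst3 (0.3897), and for Mthfd2 they were Dstn (0.450) and Styx (0.473). Phgdh was nearest to Pelp1 (0.492) and Bop1 (0.519), Shmt2 to Sf3a2 (0.529) and Cabp7 (0.589), and Shmt1 had no gene closer than Arhgef37 (0.613).

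Of 81 other genes around the pathway, in 7 lists, 77 passed the filter on low counts, and none passed edgeR's threshold in either direction at either time. At 2 days 30 had a log2 fold change above 0 and 46 below, with a median of -0.20 (all genes 0.00), and at 5 days 26 lay above 0 and 50 below, with a median of -0.23 (all genes 0.03). At 2 days 2 of the 77 lay wholly above their controls (2.24% of all genes did) and 3 wholly below (2.91%), and at 5 days 0 lay wholly above (3.39%) and 2 wholly below (2.25%), so the genes without overlap named here are few and near the share of all genes. Genes of the serine and glycine transport list lay below 0 at 2 days in 10 of 11 cases (median -0.62), where 49.9% of all genes did. The exception was Sfxn3, a relative of Sfxn1, at 31.4 ± 10.5 CPM in 2-day Wnt libraries and 10.2 ± 1.98 CPM in P23 controls (SD), 1.63 ± 0.47 on the log2 scale (SE; edgeR adjusted p = 0.919). Its Wnt libraries (22.6 to 46.7 CPM) all lay above the controls (8.47 to 12.4 CPM), and at 5 days it stood at 33.2 ± 19.6 CPM, against 20.1 ± 1.51 CPM in P26 controls, with overlap. Sfxn2 was at 4.16 ± 4.37 CPM in 2-day Wnt libraries and 9.24 ± 1.68 CPM in P23 controls.

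In the list of glycine cleavage and serine breakdown (Sds, Sdsl and Srr for the latter), 6 of 7 genes lay below 0 at 5 days (median -0.65). Of all genes, 48.4% did. At 2 days 3 of 7 lay below 0 (median 0.07), where 49.9% of all genes did. Of the 7, Gldc, Amt and Sds averaged at most 3.71 CPM in either group at 5 days. Dld, the lipoamide dehydrogenase that glycine cleavage shares with pyruvate dehydrogenase, was at 105.3 ± 50.3 CPM in 5-day Wnt libraries and 143 ± 57.7 CPM in P26 controls. It was at 138.5 ± 30.9 CPM in 2-day Wnt libraries and 234 ± 74.6 CPM in P23 controls. Gcsh, which carries the aminomethyl group, was at 40.2 ± 11.96 CPM in 5-day Wnt libraries and 63.0 ± 26.7 CPM in P26 controls. Of the 15 other folate genes tested, 5 lay above 0 and 10 below at 5 days (median -0.18). Among them, Slc25a32, the mitochondrial folate carrier, stood at 9.65 ± 3.96 CPM in 5-day Wnt libraries and 3.84 ± 3.77 CPM in P26 controls. Folr2, a folate receptor also found on macrophages, stood at 42.8 ± 30.1 CPM in 2-day Wnt libraries and 16.2 ± 0.747 CPM in P23 controls, with overlap in both cases.

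In the methionine and transsulfuration list, 4 of 11 genes lay above 0 and 7 below at both times. Cth, the lyase that makes cysteine, was at 11.8 ± 3.97 CPM in 2-day Wnt libraries and 23.8 ± 4.73 CPM in P23 controls, with no overlap and a log2 fold change of -1.01 ± 0.86 (SE). Cbs, the enzyme before it, was at 8.79 ± 5.98 CPM in 5-day Wnt libraries and 18.8 ± 23.2 CPM in P26 controls. Of the 4 choline-derived genes tested, 3 lay above 0 at 5 days, Chdh at 53.1 ± 26.8 CPM in Wnt libraries and 30.3 ± 22.96 CPM in P26 controls, and Aldh7a1 at 109.6 ± 37.9 CPM in Wnt libraries and 72.9 ± 48.9 CPM in P26 controls. Of the 6 genes of purine synthesis, which consumes formyl units, 4 lay below 0 at 5 days and 5 at 2 days. Adsl was at 30.02 ± 4.57 CPM in 5-day Wnt libraries and 42.5 ± 6.34 CPM in P26 controls with no overlap (-0.50 ± 0.35, SE), and Ppat at 4.86 ± 3.62 CPM in 2-day Wnt libraries and 10.8 ± 5.40 CPM in P23 controls.

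**Figure D5:**
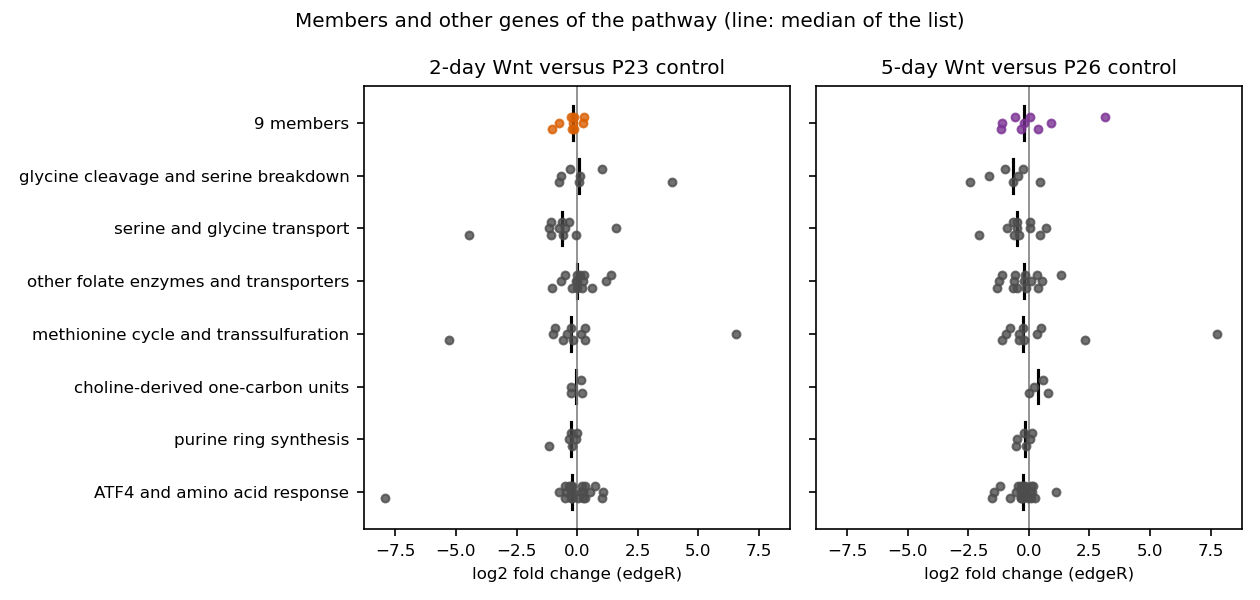
Log2 fold changes (x axis, edgeR) of the 9 members and of the tested genes of 7 related lists (y axis; 1 point per gene, vertical line at the list's median) for 2-day Wnt over P23 control (left) and 5-day Wnt over P26 control (right). List medians lie between -0.65 and 0.40, and the points farthest from 0 among the related lists belong to genes with almost no reads in 1 of the groups, such as Slc7a11 at 2 days.

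Of the 23 genes of the ATF4 and amino acid response, 11 lay above 0 and 12 below at 2 days (median -0.19), and 7 above and 16 below at 5 days (median -0.23). Atf4 itself was at 225 ± 9.80 CPM in 5-day Wnt libraries (209.5 to 234.6) and 323 ± 82.7 CPM in P26 controls (269 to 418), without overlap, -0.52 ± 0.28 on the log2 scale (SE; edgeR adjusted p = 0.710). At 2 days it was at 238 ± 14.4 CPM in Wnt libraries and 234 ± 41.1 CPM in P23 controls. Gdf15, a secreted stress cytokine, was at 18.3 ± 4.99 CPM in 5-day Wnt libraries and 52.7 ± 39.8 CPM in P26 controls, -1.52 ± 0.50 on the log2 scale (SE; edgeR adjusted p = 0.660), and Trib3, a pseudokinase, at 3.14 ± 2.26 CPM in Wnt libraries and 8.465 ± 4.43 CPM in P26 controls. Pck2, mitochondrial phosphoenolpyruvate carboxykinase, was at 36.9 ± 16.5 CPM in 2-day Wnt libraries and 17.6 ± 3.78 CPM in P23 controls, with no overlap (1.07 ± 0.43, SE). Slc7a11 and Slc38a1 were separated at 2 days only at levels near 0, with Slc7a11 at 0 in all 4 Wnt libraries and at 0.306 to 1.93 CPM in P23 controls. Pck2, Slc7a11, Slc38a1 and Atf4 were named after their values were seen.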

How the data were processed

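RNA from floating cells of digested dorsal skin was made into libraries from 100 ng of total RNA with the Universal Plus mRNA-SEQ kit, per the labels' protocols. The authors deposited raw counts per gene for 15 libraries, which were used as deposited. Trimmomatic 0.39, SAMtools 1.9, Cufflinks 2.2.1, DESeq2 1.40.1 and the builds mm10 and GRCm38 are named per the submitters' processing notes, while the sources used here do not give the aligner, the counter or the strand setting. Coordinates are those of the count table (GRCm38). Replicates are labelled as biological, and p-values measure the spread between these libraries.

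Genes were filtered with edgeR's filterByExpr by group, leaving 16935 and removing 18438. Libraries were scaled by the trimmed mean of M values and fitted together as 4 groups with edgeR's robust quasi-likelihood test (edgeR 4.0.16, limma 3.58.1, DESeq2 1.42.0, R 4.3.3), p-values being two-sided and adjusted by Benjamini-Hochberg over all genes tested, with a threshold of 0.05. The SE is the log2 fold change divided by the square root of F. CPM is the count over the normalized library size; CPM per kb divides it by the length of the union of exons in GENCODE M21. Counts of 1 gene per library ranged from 0 to 9281 for the members, and intervals and floors cover counting error only. The fit was tested on simulated data with known changes, with a required result only at a fixed spread and not at the spread of these libraries. That test therefore does not give the power of the fit here.

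The 9 members and the lists were chosen with earlier results of these data known. Named genes were all members and, of each list, the called genes or else the 2 with the largest log2 fold change of either sign among those whose log2 CPM averaged at least 1; genes whose groups did not overlap were added after their values were seen. Nearest genes were the 2 with the smallest difference among those at the same minimum level, with predicted genes, sex-linked genes and genes of ribosomal proteins, microRNAs or the mitochondrial genome left out; 1 of them is not reported here. Promoter windows came from RefSeq (GRCm38.p6). Alternatives were RLE size factors, DESeq2, limma voom with quality weights, no filter, at least 10 counts in every library, a replicate block, a Y-linked covariate, the grouping of the sample sheet and each library left out. Leaving out 2-day Wnt replicate 1 and P26 control replicate 1 together was chosen after seeing the data. A second, reordered copy of the counts and a filtered table were not used.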

Additional observations from a re-analysis of the deposited data

Results flagged for a closer look

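Of 18 groups of 4 or 5 libraries examined, 5 held a library far from the others, where chance gives about 1 in 20 if groups are independent. The 5 values came from 3 libraries, so they are not independent. Phgdh was at 16.6 CPM in 5-day Wnt replicate 5, where the other 4 held 42.2 to 46.8 CPM. In the same library Aldh1l2 was at 71.5 CPM, where the others held 16.3 to 25.6 CPM. Shmt2 was at 99.98 CPM and Mthfd2 at 31.6 CPM in 5-day Wnt replicate 1, the library with the smallest total count (11383421), where the others held 37.0 to 50.1 CPM of Shmt2 and 7.61 to 13.2 CPM of Mthfd2. Mthfd2 was also at 21.9 CPM in 2-day Wnt replicate 1, where the others held 8.73 to 10.8 CPM.

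Sfxn1 and Aldh1l2 differed in the side on which the Wnt libraries lay: all 5 of the 5-day Wnt libraries were above the mean of their controls and all 4 of the 2-day Wnt libraries below that of theirs. The difference between the effects was 1.65 on the log2 scale for Sfxn1 (edgeR adjusted p = 0.811) and 4.18 for Aldh1l2 (edgeR adjusted p = 0.868), so neither passed the test of the difference. For Aldh1l2 the 2-day Wnt libraries held 4.795 to 10.7 CPM, against 9.83, 5.68 and 29.2 CPM in P23 controls, whose mean was set by replicate 3, and the 2-day log2 fold change was -0.14 without it.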

How the results depend on the processing

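With 3 to 5 libraries a group and wide spread within groups, edgeR called 0 genes in each comparison. If no gene differed, a fraction of 0.05 of the 16935 genes tested would be expected to have an unadjusted p under 0.05. The numbers that did were 875, 1195, 1182 and 969 at 2 days, at 5 days, between the controls and for the difference between effects. Calls depended on the tool: DESeq2 called 149, 200, 286 and 149 genes in that order, and limma voom with quality weights called 226 at 5 days, 138 between the controls and 0 at 2 days and for the difference. Leaving out 1 library gave 0 to 4 calls at 5 days (2 without P26 control replicate 1, 4 without replicate 2), 0 to 5 between the controls (2 without P26 control replicate 2, 5 without 5-day Wnt replicate 5) and 0 to 2 for the difference (2 without P26 control replicate 2); without 2-day Wnt replicate 1 and P26 control replicate 1 together, 4 genes were called at 5 days. The replicate block gave 0 calls at 2 and 5 days and 5 between the controls. In deviations from their group means, same-numbered libraries correlated at -0.00936 to 0.16 and differently numbered ones at -0.158 to 0.0926. The same-numbered control was the closest for most Wnt libraries that had one, and whether the numbers pair the libraries is not settled. Of 860 refitted values of the members, 838 kept their side of the threshold and moved by less than the spread, 17 moved by more, mainly Shmt1 and Mthfd2 without P26 control replicate 1, and 5 passed the threshold: Sfxn1 between controls in DESeq2 and voom, and Aldh1l2 in 3 comparisons without P26 control replicate 2 (5 days 12.60, difference 13.68, P26 against P23 controls -11.50, adjusted p 0.00407 to 0.0152 in edgeR). The 838 include values that changed sign but moved by less than the spread. Mthfd1 did so for the difference between effects in 11 of 24 settings. Aldh1l2 has no value with at least 10 counts required in every library. The loosened response element was in 2 members, the stricter forms in 0. The causes were not tested.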
